A study of Mus musculus with 6 samples.

Results

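The 9 genes described here are 2 insulin-like growth factor ligands (Igf1 and Igf2), their signalling receptor (Igf1r) and 6 IGF-binding proteins (Igfbp2 to Igfbp7), taken by name from the 52636 genes counted in the study. They were followed across the 8 annotated cell types, the 9 fibroblast sub-clusters and the 2 genotypes. RNA was counted in 25428 single cells of retinal pigment epithelium (RPE, the pigmented cell layer beneath the retina) and choroid (the vascular layer behind it) that had been dissociated and grown in culture. Male C57BL/6J mice were the source, aged 12 to 16 months, and the set comprised 3 samples of Dram2 wt/wt, the controls, and 3 samples of Dram2 ko/ko, in which a CRISPR deletion had removed an exon from both copies of Dram2, a gene of lysosomes and autophagy, in the whole animal. All 6 samples shared the strain, the sex and the culture, and batch 2 held a single sample, Dram2 ko/ko replicate 3. The labels do not say whether the samples of a genotype were separate animals or pools, so p-values measure only the spread between these samples. Values are unique molecular identifiers (UMIs, 1 for each RNA molecule captured at its 3′ end) summed over the cells of a type in a sample and given as CPM, the count scaled so that every sum has the same total. The mean ± SD is over samples. A sum needed at least 10 cells, which 4 samples reached in the Myeloid type and all 6 in the other types. Because the types and sub-clusters were made by clustering these same counts, levels across them are given as a description with no test.

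IGF-I and IGF-II are secreted growth factors that activate the receptor tyrosine kinase encoded by Igf1r, which signals through insulin receptor substrates, PI3-kinase and AKT to promote growth and survival. The classical IGF-binding proteins hold both ligands with high affinity outside the cell, where they prolong the life of the ligand and can either withhold it from the receptor or deliver it to the cell surface, and proteases cut some of them to release it. Igfbp7 encodes a related secreted protein of low IGF affinity that is deposited in vessel walls and matrix. In the eye, IGF signalling is known for its part in vessel growth, and the RPE and choroidal stroma are known sources of ligands and binding proteins.

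Total UMIs ranged from 96808998 to 122746184 per sample and the median cell held 16453 to 47373 UMIs. Dram2 was at 33.4, 39.6 and 38.1 CPM in the Dram2 wt/wt samples and at 30.7, 28.3 and 30.1 CPM in the Dram2 ko/ko samples, but 3′ reads lie outside the deleted exon and check nothing about the deletion. The Endothelial type carried Pecam1 (653 CPM) and Cdh5 (971 CPM), the Myeloid type carried Lyz2 (10629 CPM), and the RPE type carried Otx2 (87.4 CPM) and Krt18 (710 CPM) with the visual cycle genes Rlbp1 at 6.59 CPM and Rpe65 at 0.693 CPM and the transporter gene Ttr at 6.86 CPM. The RPE channel gene Best1 was at 0.196 CPM in it, below Fibroblast (0.760 CPM). The type annotated Pericyte went against its name. Of its 7 pericyte markers Kcnj8, Higd1b and Ndufa4l2 were at 0 CPM, Abcc9 was at 0.110 CPM, Rgs5 at 7.79 CPM, Pdgfrb at 29.4 CPM and Cspg4 at 199 CPM, whereas the Schwann lineage genes Ngfr (407 CPM) and Sox10 (179 CPM) were high, so the name Pericyte is used below only as the annotation's label. The deposited cells are numbered and carry no barcodes, so barcodes shared between libraries could not be counted.

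All 9 genes were found by their identifiers, on the mouse assembly GRCm38. Igf1 (ENSMUSG00000020053) lies at chr10:87858265-87937042 on the plus strand, Igf2 (ENSMUSG00000048583) at chr7:142650766-142666816 on the minus strand and Igf1r (ENSMUSG00000005533) at chr7:67952827-68233668 on the plus strand. Igfbp3 (ENSMUSG00000020427) lies at chr11:7206086-7213923 on the minus strand, Igfbp4 (ENSMUSG00000017493) at chr11:99041244-99054392 on the plus strand, Igfbp6 (ENSMUSG00000023046) at chr15:102144362-102149511 on the plus strand and Igfbp7 (ENSMUSG00000036256) at chr5:77349240-77408041 on the minus strand. Igf2 overlaps Gm49394 and Mir483 on its own strand, so its low count is uncertain, and Igf1os, Igf2os and, at Igfbp7, Polr2b and Gm34648 lie on the other strand. Igfbp2 (ENSMUSG00000039323, chr1:72824503-72852474, plus strand) and Igfbp5 (ENSMUSG00000026185, chr1:72857932-72874884, minus strand) are neighbours whose 3′ ends face each other across 5457 bases.

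The promoters of Igfbp2, Igfbp5 and Igfbp4 are shown because these 3 binding protein genes were highest in 3 different cell types, although the first and the second are neighbours. Each sequence runs 5′ to 3′ on the gene's own strand from 250 bases before to 50 bases after the start (RefSeq, GRCm38.p6). Capitals mark 3 motifs on either strand, TATAAA as the TATA box, CCAAT as the letters read by NF-Y and GGGCGG as the GC box, and none overlapped another.
Igfbp2, chr1:72824230-72824529, plus strand, the first of its listed starts: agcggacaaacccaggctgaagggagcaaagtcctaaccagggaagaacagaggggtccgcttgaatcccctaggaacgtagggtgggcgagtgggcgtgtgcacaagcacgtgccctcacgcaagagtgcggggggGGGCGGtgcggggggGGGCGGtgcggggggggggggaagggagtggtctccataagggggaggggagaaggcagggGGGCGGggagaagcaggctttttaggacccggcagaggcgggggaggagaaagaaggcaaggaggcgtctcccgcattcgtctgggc
Igfbp5, chr1:72874816-72875115, minus strand: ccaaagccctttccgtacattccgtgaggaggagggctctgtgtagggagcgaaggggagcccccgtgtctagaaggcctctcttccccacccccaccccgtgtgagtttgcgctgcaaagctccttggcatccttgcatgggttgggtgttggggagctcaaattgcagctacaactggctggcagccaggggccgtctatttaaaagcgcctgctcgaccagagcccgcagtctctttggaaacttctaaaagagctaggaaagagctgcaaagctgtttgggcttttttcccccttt
Igfbp4, chr11:99040994-99041293, plus strand: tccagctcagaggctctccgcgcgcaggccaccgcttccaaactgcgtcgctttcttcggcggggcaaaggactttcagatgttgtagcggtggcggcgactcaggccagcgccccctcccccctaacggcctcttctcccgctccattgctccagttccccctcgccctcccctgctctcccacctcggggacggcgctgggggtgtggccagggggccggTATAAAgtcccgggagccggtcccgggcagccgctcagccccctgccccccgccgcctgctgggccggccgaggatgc
The Igfbp2 window held GGGCGG 3 times and had 67.0% G and C. The Igfbp5 window held none of the 3 motifs and had 56.3% G and C. The Igfbp4 window held TATAAA 1 time and had 71.3% G and C. Of 32851 promoter windows of this length, 35.7% held GGGCGG, 37.4% held CCAAT and 13.6% held TATAAA. These are matches of letters and say nothing of which factors bind.

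The ligand Igf1 was highest in the Myeloid type and in fibroblasts of 1 sub-cluster. Myeloid sums stood at 55.8 and 83.8 CPM in Dram2 wt/wt replicates 2 and 3 and at 119 and 86.1 CPM in Dram2 ko/ko replicates 2 and 3 (86.2 ± 25.9, n = 4), 2.17-fold above the mean of Fibroblast 2, the next type, with no overlap between their ranges. These 4 sums rest on 21 to 43 UMIs of Igf1 in 11 to 32 cells each. Fibroblast 2, the type with the most of the matrix gene Dcn (2536 CPM, against 580 CPM in Fibroblast), ranged in Igf1 from 23.5 to 50.3 CPM around a median of 41.9 (39.7 ± 9.22, n = 6), and Fibroblast from 22.3 to 31.6 CPM around a median of 28.9 (27.5 ± 4.01). Fibroblast proliferating was at 19.2 ± 3.09 CPM, RPE at 11.1 ± 4.45 CPM, Fibroblast-like at 9.39 ± 6.65 CPM, Pericyte at 8.55 ± 3.70 CPM and Endothelial at 6.71 ± 4.45 CPM. From Fibroblast 2 downward each type overlapped the next in range. With every cell thinned to 3000 UMIs, 19% of Myeloid cells held an Igf1 UMI against 2.08% of Endothelial cells, the type with the fewest (58.3% and 4.51% before thinning, at median depths of 16550 and 9262 UMIs).

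Within the fibroblasts, Igf1 was concentrated in sub-cluster 3, a group that the annotation split into 2964 Fibroblast 2 cells and 811 Fibroblast cells. The Fibroblast cells there held 195, 142 and 172 CPM of Igf1 in the Dram2 wt/wt samples beside 163, 133 and 166 CPM in the Dram2 ko/ko samples (162 ± 22.3, n = 6). Every one of these values lay above the whole range of the Fibroblast 2 cells of the same sub-cluster (40.1 ± 9.54 CPM), of the Fibroblast cells of sub-cluster 1 (17.1 ± 1.35 CPM) and of the Myeloid type. Their mean was 4.03-fold that of the first, 9.46-fold that of the second and 1.88-fold that of the third. The Fibroblast cells of sub-cluster 7 (74.1 ± 42.1 CPM) overlapped them in range, though they were lower in all 6 samples. These cells were 6.41% of the Fibroblast type and held 6.36% of its UMIs, but 37.9% of its Igf1 UMIs and 37.0% of its Igfbp5 UMIs. Their median depth of 26221 UMIs was close to the 27190 UMIs of Fibroblast cells in sub-cluster 1.

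As sums, the same Fibroblast cells of sub-cluster 3 held binding proteins that went apart between Fibroblast cells of sub-cluster 1 and Fibroblast 2. Their Igfbp2 (1080 ± 304 CPM), Igfbp4 (847 ± 102 CPM) and Igf1r (197 ± 24.1 CPM) overlapped the range of Fibroblast cells in sub-cluster 1 and stood above that of Fibroblast 2 in every sample. Their Igfbp5 (422 ± 173 CPM) was 11.2-fold above that of sub-cluster 1 and 8.13-fold below that of Fibroblast 2, with no overlap on either side. Igfbp3 was 1.03 ± 0.711 CPM in these cells, 4.56-fold below sub-cluster 1, and Igfbp6 was 28.1 ± 7.14 CPM, 2.52-fold below it, again without overlap. The Igfbp3 sums rest on 1 to 9 UMIs each, so its fold is uncertain. Fibroblast cells of sub-cluster 7 overlapped them in Igfbp3 (2.62 ± 3.96 CPM), Igfbp4 (468 ± 334 CPM), Igfbp5 (489 ± 827 CPM) and Igfbp6 (10.2 ± 7.55 CPM). They also overlapped in Igf1, Igf2 and Igf1r, but not in Igfbp2 (253 ± 200 CPM) or Igfbp7 (5353 ± 1057 CPM). Fibroblast cells of sub-cluster 4 overlapped those of sub-cluster 3 in Igf1r, Igfbp4 (755 ± 67.8 CPM), Igfbp6 (26.3 ± 4.36 CPM) and Igfbp7 (2405 ± 316 CPM). They did not in Igf1, Igf2, Igfbp2, Igfbp3 or Igfbp5. Sums over cells do not show whether single cells held these RNAs together. Sub-cluster 7 was the other place of high Igf1, with 33.8 to 143 CPM (mean 68.3), and its range overlapped that of sub-cluster 3 as a whole (53.5 to 80.1 CPM). In the other sub-clusters Igf1 averaged between 0.767 CPM (sub-cluster 8) and 22.6 CPM (sub-cluster 6).

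**Figure D1:**
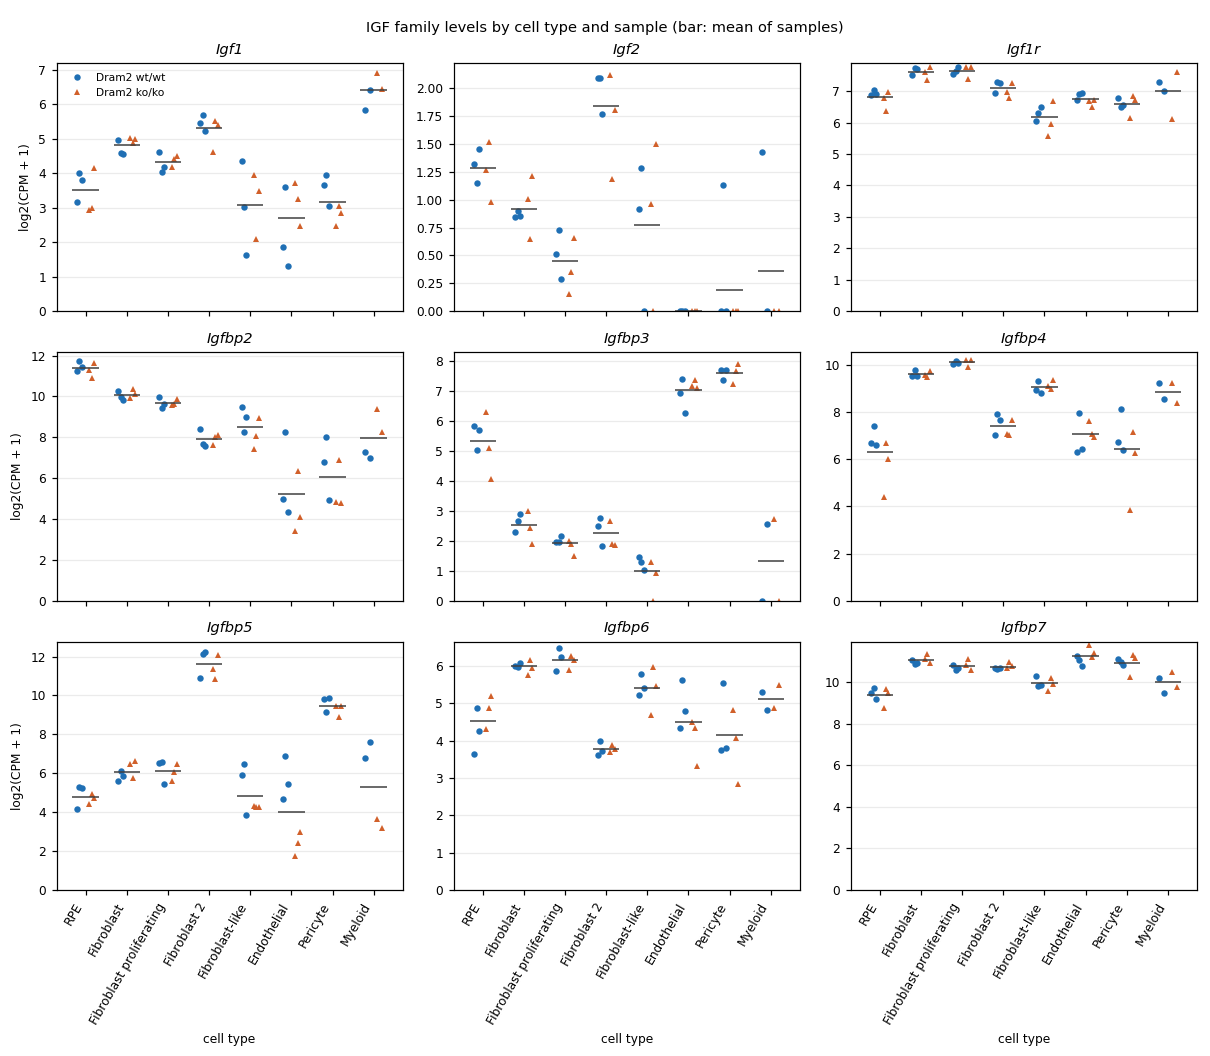
Level of each IGF family gene as log2(CPM + 1) (vertical axes, starting at 0 and with their own range for each gene) in the 8 annotated cell types (horizontal axis). Each point is 1 sample, circles Dram2 wt/wt and triangles Dram2 ko/ko, and bars are means of the plotted values. Igfbp2 is highest in RPE, Igfbp5 in Fibroblast 2 and then Pericyte, Igfbp3 in Pericyte and Endothelial, Igf1 in Myeloid, and the genotypes mostly overlap.

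The second ligand, Igf2, an imprinted growth factor gene of fetal life, was barely detected. It gave 624 UMIs in all and 0.940 ± 0.221 CPM over whole samples. Fibroblast 2 held 3.26, 3.26 and 2.40 CPM in the Dram2 wt/wt samples beside 3.34, 1.27 and 2.50 CPM in the Dram2 ko/ko samples (2.67 ± 0.803), and RPE held 1.45 ± 0.329 CPM. Their ranges overlapped, and 5 of 6 samples had the higher value in Fibroblast 2. Fibroblast was at 0.897 ± 0.254 CPM, Fibroblast-like at 0.849 ± 0.742 CPM, Myeloid at 0.423 ± 0.845 CPM, Fibroblast proliferating at 0.379 ± 0.211 CPM and Pericyte at 0.199 ± 0.487 CPM. An Igf2 UMI was found in 0 of 288 Endothelial cells, which allows a share of up to 1.04% of cells with a UMI and a level of up to 0.835 CPM (3 counts over the summed type, counting error only). Of the sub-clusters, 6 was highest for Igf2 (1.93 to 11.4 CPM, mean 5.75). These values rest on 15 UMIs, so no order between sub-clusters is read from them.

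The receptor gene Igf1r was found in every type within a narrow span. Fibroblast proliferating (199 ± 20.7 CPM) and Fibroblast (196 ± 22.0 CPM) were highest and overlapped. Both stood above Fibroblast 2 (136 ± 20.2 CPM, 109 to 157) without overlap in range. Myeloid was at 136 ± 53.3 CPM, RPE at 113 ± 17.1 CPM, Endothelial at 106 ± 11.6 CPM, Pericyte at 96.6 ± 15.8 CPM and Fibroblast-like at 73.6 ± 20.5 CPM, each overlapping the next. Dram2 ko/ko replicate 2 had the lowest value of the 6 samples in Fibroblast (162 CPM), Fibroblast proliferating (166 CPM), Fibroblast 2 (109 CPM), RPE (82.2 CPM) and Endothelial (90.1 CPM), as well as the lowest of the 4 Myeloid sums (68.1 CPM). In Pericyte it had the highest (113 CPM), and in Fibroblast-like the lowest was Dram2 ko/ko replicate 1 (46.1 against 60.8 CPM). Dram2 ko/ko replicate 2 was also the sample with the most cells and the fewest UMIs in its median cell, 6648 cells and 16453 UMIs, and the part of depth in this was not tested.

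Among the sub-clusters, 6 stood apart for Igf1r. It held 422, 460 and 501 CPM in the Dram2 wt/wt samples beside 526, 310 and 515 CPM in the Dram2 ko/ko samples, with a mean of 456 CPM that was 2.24-fold above that of sub-cluster 7 and no overlap with it. The types within sub-cluster 6 shared this, with 485 ± 105 CPM (n = 6) in its 193 Fibroblast cells, 503 ± 81.1 CPM (n = 5) in its 115 Fibroblast proliferating cells and 351 ± 78.0 CPM (n = 5) in its 168 Fibroblast-like cells, all above the range of sub-cluster 7. Sub-cluster 6 also ranked first for Igfbp2 (1897 to 4680 CPM), without overlap, and for Igfbp4 (1146 to 1710 CPM), overlapping sub-cluster 2. These 2 did not extend to its Fibroblast-like cells, where Igfbp2 was at 542 ± 504 CPM and Igfbp4 at 489 ± 201 CPM. Its median cell held 4766 UMIs and 21% mitochondrial counts, against 27032 UMIs and 2.86% in sub-cluster 1. With cells of under 500 genes or over 20% mitochondrial counts left out, sub-cluster 6 was at 481 CPM of Igf1r, 3378 CPM of Igfbp2 and 1565 CPM of Igfbp4, and the part of RNA quality in its levels was otherwise not tested. Sub-cluster 5, nearly all Fibroblast-like cells at a median depth of 5856 UMIs, held 42.1 CPM of Igf1r, 3.47-fold below sub-cluster 4.

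Igfbp2, a binding protein that prefers IGF-II and is abundant in epithelia, was the family gene of the RPE. RPE sums held 2465, 3435 and 2781 CPM in the Dram2 wt/wt samples beside 2484, 1897 and 3169 CPM in the Dram2 ko/ko samples (2705 ± 550, n = 6). All 6 lay above the highest Fibroblast sum, and the mean was 2.49-fold that of Fibroblast (1086 ± 157 CPM). Sub-cluster 6 (1897 to 4680 CPM) overlapped the RPE range, however, and its 193 Fibroblast cells held 3555 ± 2265 CPM. Fibroblast proliferating was at 827 ± 125 CPM, Fibroblast-like at 407 ± 197 CPM, Myeloid at 314 ± 252 CPM and Fibroblast 2 at 246 ± 60.8 CPM. Pericyte (95 ± 90.1 CPM) and Endothelial (76.5 ± 113 CPM) were lowest. After thinning, 84.2% of RPE cells held an Igfbp2 UMI, against 45.5% of Fibroblast, 20.5% of Fibroblast 2 and 10.4% of Endothelial cells (94.7%, 72.0%, 50% and 23.3% before it, at median depths of 22906, 26108, 18394 and 9262 UMIs). The share pools the cells of all samples, and by sample it lay between 65.8% and 90.1% in RPE. Replicate 2 of Dram2 wt/wt gave 539 and replicate 3 of Dram2 ko/ko gave 575 of the 1492 RPE cells. Both had the highest RPE Igfbp2 of their genotype. Their RPE cells had the lowest sums of the 6 RPE markers, 502 and 292 CPM against 859 to 1097 CPM in the other samples. The sum mainly follows Krt18, at a mean of 710 CPM in RPE against 87.4 CPM for Otx2 and at most 6.86 CPM for the rest. The part of the lower sums in the Igfbp2 level was not tested.

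Although RPE cells held 5.93 ± 5.44% of all UMIs of a sample, they held 16.3 ± 14.6% of its Igfbp2 UMIs, between 3.64% and 37.1%. The largest part of Igfbp2 nevertheless came from Fibroblast, with 58.4 ± 10.6% of the Igfbp2 UMIs and 54.2 ± 4.79% of all UMIs. Igfbp2 was uneven between cells of the same type. In Fibroblast 2 the tenth of cells with the most Igfbp2 UMIs held 82.3% of them after thinning, and a single cell of Dram2 wt/wt replicate 1 held 1389 of its 4960 Igfbp2 UMIs. Among Fibroblast cells, sub-cluster 4 was low (173 ± 44.0 CPM) and sub-cluster 1 high (1203 ± 176 CPM).

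Igfbp5, a binding protein of mesenchymal tissue that also binds matrix, was the family gene of Fibroblast 2. Its sums there held 1941, 4529 and 4863 CPM in the Dram2 wt/wt samples beside 2629, 1821 and 4325 CPM in the Dram2 ko/ko samples (3351 ± 1376). The range was wide in both genotypes, and its lowest value was still above the highest of every other type. Pericyte followed at 473 to 933 CPM (714 ± 178), 4.70-fold lower in the mean and without overlap. The remaining types were Myeloid at 80.6 ± 89.2 CPM, Fibroblast proliferating at 71.2 ± 23.0 CPM, Fibroblast at 69.1 ± 20.9 CPM, Fibroblast-like at 35.7 ± 30.1 CPM, Endothelial at 33.4 ± 44.8 CPM and RPE at 27.8 ± 8.71 CPM, each overlapping the next. Fibroblast 2 held 82.0 ± 2.92% of the Igfbp5 UMIs of a sample with 10.2 ± 4.13% of all UMIs.

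After thinning, 51.2% of Fibroblast 2 cells and 50.6% of Pericyte cells held an Igfbp5 UMI. In the remaining types the share lay between 3.12% (Endothelial) and 5.95% (Myeloid), alike in types as different as RPE (4.96%) and Fibroblast (5.31%), and no share of free RNA was measured. In Fibroblast these UMIs were not spread evenly, as the cells of sub-cluster 3 held 37.0% of them (above). Before thinning these shares were 60.5%, 73.7%, 6.94%, 25.0%, 18.8% and 19.4% in the same order. In sub-cluster 7 the Igfbp5 values ran from 11.5 to 2027 CPM, and its highest sample, Dram2 ko/ko replicate 3, had 441 of its 1168 Igfbp5 UMIs in 1 of 22 cells.

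**Figure D2:**
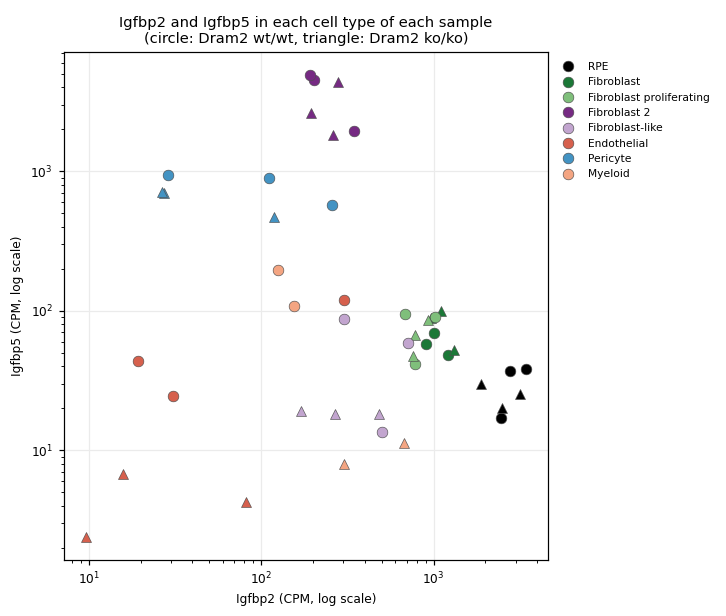
Igfbp2 (horizontal, CPM on a log scale) against Igfbp5 (vertical, CPM on a log scale), 1 point for each cell type of each sample, coloured by type, circles Dram2 wt/wt and triangles Dram2 ko/ko. RPE points lie at the far right and low, Fibroblast 2 points at the top with Igfbp2 between 192 and 344 CPM, and Endothelial points are widely scattered.

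Over the 46 sums of a cell type in a sample, the Pearson correlation of log2(CPM + 1) between Igfbp2 and Igfbp5 was -0.16. These points share libraries and cell types, so it is a description only. RPE had the highest mean of Igfbp2 and the lowest of Igfbp5 in the 8 types, the latter overlapping Endothelial, Fibroblast 2 had the most Igfbp5 and was the sixth for Igfbp2, and Endothelial cells were low in both. Igfbp2 was lower in Fibroblast 2 than in Fibroblast in every sample, and Igfbp5 was higher in every sample.

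Igfbp3, the main carrier of IGFs in serum, was highest in Pericyte and Endothelial cells, both small types. The Pericyte sums held 207, 166 and 207 CPM in the Dram2 wt/wt samples beside 152, 202 and 239 CPM in the Dram2 ko/ko samples (196 ± 31.6). The Endothelial sums held 76.1 to 168 CPM (135 ± 34.1), overlapped those of Pericyte and were lower in 5 of 6 samples. RPE was at 44.4 ± 22.0 CPM, 8.99-fold above Fibroblast (4.94 ± 1.61 CPM) and without overlap in range. Fibroblast 2 was at 3.95 ± 1.49 CPM, Fibroblast proliferating at 2.81 ± 0.555 CPM, Myeloid at 2.65 ± 3.08 CPM and Fibroblast-like at 1.10 ± 0.618 CPM. Pericyte cells held 19.8 ± 10.9% and Endothelial cells 8.73 ± 3.40% of a sample's Igfbp3 UMIs with 0.791 ± 0.392% and 0.532 ± 0.233% of all UMIs. The larger parts came from Fibroblast (32.9 ± 9.19%) and RPE (24.0 ± 12.4%). After thinning, 31.5% of Pericyte and 21.9% of Endothelial cells held an Igfbp3 UMI, against 6.37% of RPE and 1.01% of Fibroblast cells (64.6%, 40.6%, 24.6% and 5.89% before it).

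Igfbp4, a binding protein known mainly as an inhibitor that the protease PAPP-A cuts, was highest in Fibroblast proliferating and then Fibroblast, but low in Fibroblast 2. Fibroblast proliferating sums held 1071, 1150 and 1112 CPM in the Dram2 wt/wt samples beside 1192, 985 and 1204 CPM in the Dram2 ko/ko samples (1119 ± 82.4). All exceeded Fibroblast (725 to 893 CPM, 791 ± 70.6), which in turn exceeded Fibroblast-like (458 to 663 CPM, 553 ± 86.4). Myeloid was at 484 ± 144 CPM, Fibroblast 2 at 175 ± 47.7 CPM, Endothelial at 145 ± 67.0 CPM, Pericyte at 116 ± 89.7 CPM and RPE at 92.7 ± 49.3 CPM. The lower group, from Fibroblast 2 to RPE, overlapped throughout and stood below Myeloid and all other types. The Myeloid sums also carried fibroblast RNA, with the fibroblast marker Mgp at 1777 CPM against 2931 CPM in Fibroblast and the 5 fibroblast markers summing to 1417 to 4067 CPM against 3550 to 4725 CPM, and its part in their Igfbp4 was not tested. After thinning, 84.5% of Fibroblast proliferating cells held an Igfbp4 UMI against 10.7% of Pericyte cells (98.6% and 32.8% before it, at median depths of 24625 and 13598 UMIs). Cells in sub-cluster 2, which were 98.7% Fibroblast proliferating, lay above those of sub-cluster 1 in every sample, at means of 1121 and 793 CPM.

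Igfbp6, a binding protein with a strong preference for IGF-II, was highest in Fibroblast proliferating and 5.57-fold lower in Fibroblast 2. Fibroblast proliferating was at 71.1 ± 11.6 CPM, Fibroblast at 62.9 ± 5.64 CPM, Fibroblast-like at 43.8 ± 13.3 CPM and Myeloid at 34.6 ± 8.23 CPM. Endothelial (24.1 ± 13.3 CPM), RPE (23.6 ± 8.89 CPM) and Pericyte (20 ± 14.2 CPM) overlapped one another. Fibroblast 2 was lowest, with the smallest SD of the 8 types, from 11.2 to 14.8 CPM around a median of 12.5 (12.8 ± 1.33). After thinning, 17.6% of Fibroblast proliferating and 3.28% of Fibroblast 2 cells held an Igfbp6 UMI (61.7% and 18.3% before it). Of the Fibroblast cells, those in sub-cluster 1 held 70.8 ± 6.06 CPM and those in sub-cluster 4 held 26.3 ± 4.36 CPM, with no overlap.

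Igfbp7, the low-affinity relative found in vessel walls, was at a high level in every type and gave the most UMIs of the family, 1266869 in all. Endothelial sums held 2423, 2174 and 1769 CPM in the Dram2 wt/wt samples beside 3568, 2379 and 2704 CPM in the Dram2 ko/ko samples (2503 ± 607). Fibroblast (2136 ± 285 CPM), Pericyte (2022 ± 477 CPM), Fibroblast proliferating (1759 ± 252 CPM) and Fibroblast 2 (1718 ± 167 CPM) followed and overlapped in turn. Myeloid (1051 ± 324 CPM), Fibroblast-like (1001 ± 181 CPM) and RPE (678 ± 150 CPM, 430 to 832) were lower, and no RPE value reached the lowest value of the 5 types above Myeloid. After thinning, 96.5% of Endothelial, 98.1% of Fibroblast, 77.7% of RPE and 65.5% of Myeloid cells held an Igfbp7 UMI (100%, 99.9%, 96.4% and 79.8% before it). Sub-cluster 7 was highest, at 3927 to 6381 CPM (mean 5131), 1.69-fold above sub-cluster 6 with no overlap. Its 185 Fibroblast cells held 5353 ± 1057 CPM.

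**Figure D3:**
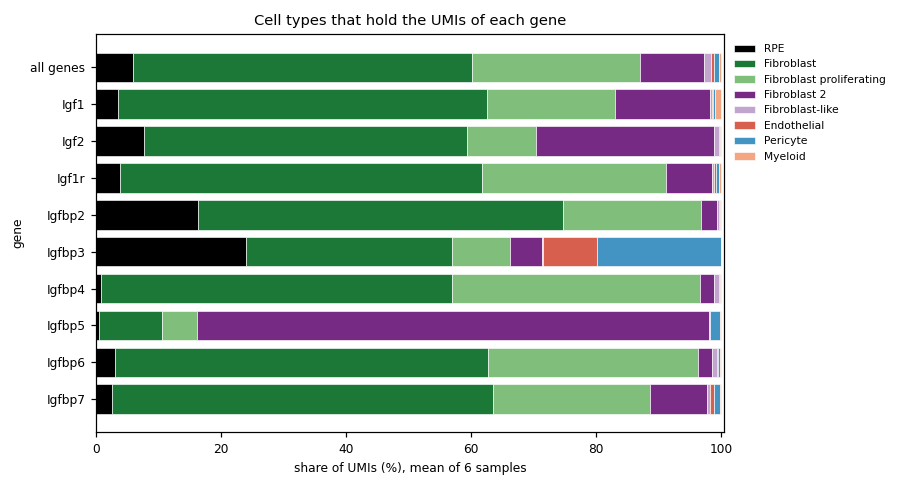
Share of the UMIs of each gene (bars, percent, mean of 6 samples) that came from each cell type, with the share of all UMIs in the top bar. Fibroblast 2 holds 82.0% of Igfbp5 with 10.2% of all UMIs, RPE holds 24.0%, Pericyte 19.8% and Endothelial 8.73% of Igfbp3, and Fibroblast proliferating holds 39.8% of Igfbp4 with 27.0% of all UMIs.

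**Figure D4:**
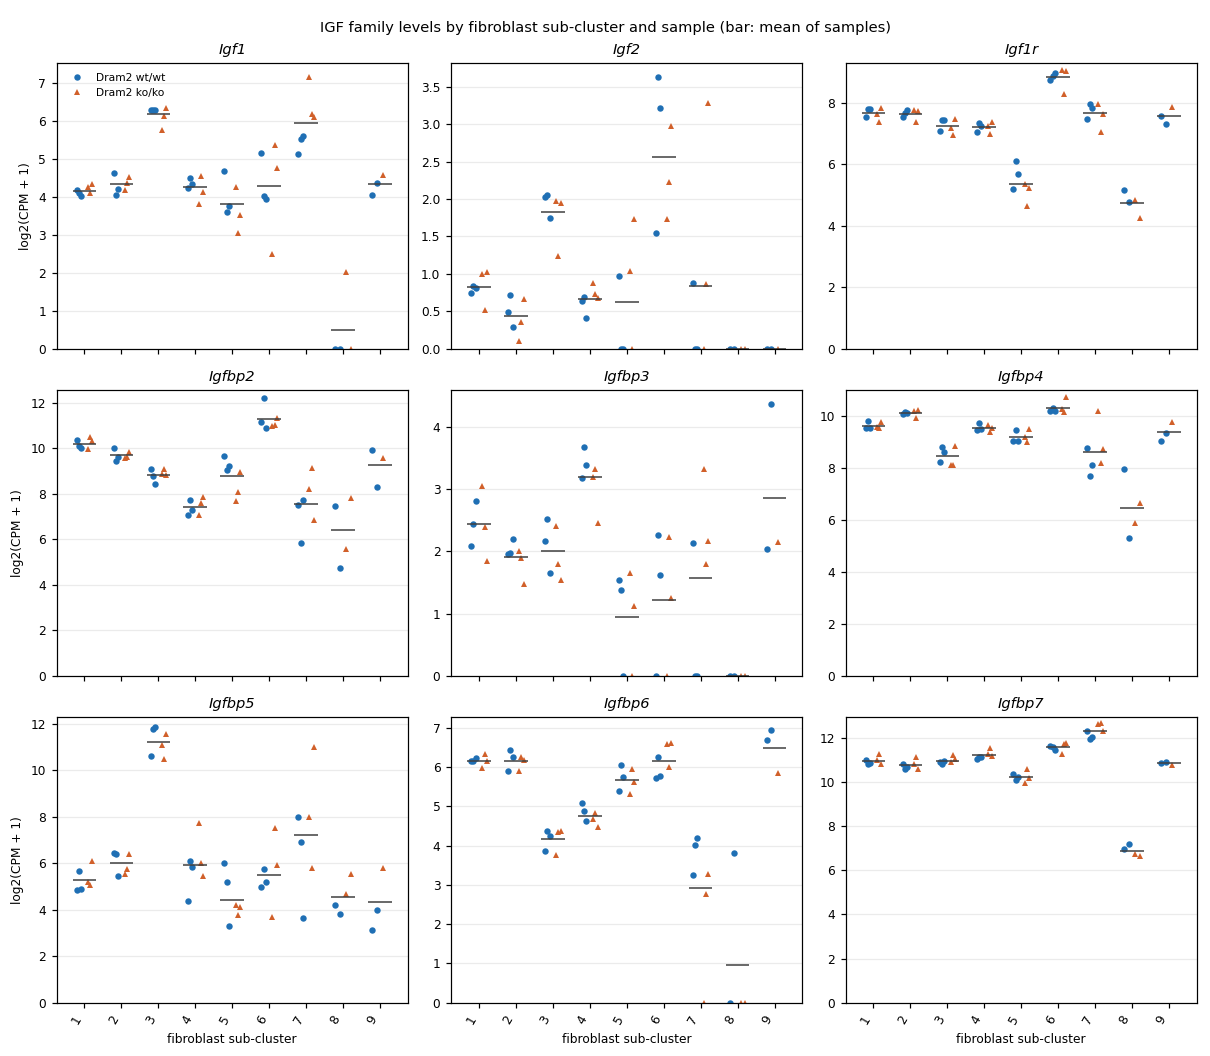
Level of each IGF family gene as log2(CPM + 1) (vertical axes, starting at 0 and with their own range for each gene) in the 9 fibroblast sub-clusters (horizontal axis), points and bars as for the cell types. Igf1 is high in sub-clusters 3 and 7, Igfbp5 in 3, Igf1r in 6 and Igfbp7 in 7. Sub-cluster 8 has 4 samples and sub-cluster 9 has 3 with at least 10 cells.

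The sub-clusters of the smallest or poorest cells are to be read with their depth and their mitochondrial share. Sub-cluster 8 held 168 Fibroblast-like cells with a median of 3150 UMIs, 91.1% of them mitochondrial in the median cell, and had the lowest mean of every family gene except Igf2, for which sub-clusters 8 and 9 were both at 0 CPM in their sums of at least 10 cells. Its Igfbp5 was at 25.0 CPM and its Igfbp7 at 117 CPM. CPM is scaled to all UMIs, mitochondrial ones included, so a high mitochondrial share lowers the value of every other gene. The part of this in the low means of sub-cluster 8 was not tested. Sub-cluster 9, with 93 cells in all, had the highest mean of Igfbp6 (93.0 CPM, 56.2 to 121), which overlapped that of sub-cluster 6 (73.0 CPM). Igfbp3 was low in every sub-cluster, with means from 0 CPM in sub-cluster 8 to 8.81 CPM in sub-cluster 9.

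The genes with the pattern most like each member, by the Pearson correlation of log2(CPM + 1) over the 46 sums among 9032 genes averaging at least 10 CPM, were as follows. For Igf1 they were Cyba (0.85), Apbb1ip (0.80) and Rab5if (0.79), and for Igf2 they were Cnrip1 (0.80), Phpt1 (0.77) and Chchd10 (0.76). For Igf1r they were St5 (0.86), Pcdh7 (0.85) and Fzd5 (0.83). Igfbp2 was most like Basp1 (0.88), Steap2 (0.87) and Speg (0.87), and Igfbp3 most like Mal (0.93), Mfap3l (0.91) and Dhh (0.91). Igfbp4 was most like Mgp (0.95), Sema3a (0.92) and Prrx2 (0.91), and Igfbp5 most like Fndc1 (0.85), Fgf2 (0.84) and Gpm6b (0.84). Igfbp6 was most like Phox2a (0.81), Tbx20 (0.81) and Chn1 (0.80), and Igfbp7 most like Acvrl1 (0.86), Tm4sf1 (0.84) and Eng (0.83). Within the family the highest value was 0.73, between Igfbp4 and Igfbp6, and the lowest was -0.70, between Igfbp3 and Igfbp4. The sums share libraries and cell types, so these values carry no p.

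The genotype comparison asked whether loss of Dram2 changed the family. In whole samples none of the 9 genes was called at an adjusted p under 0.05 by voom-limma, and neither was any of the 22580 genes tested (0%), of which 1583 had an unadjusted p under 0.05. The edgeR quasi-likelihood test and DESeq2 called 0 of the 9 there too. Igf1 was at 28.8, 21.6 and 21.3 CPM in Dram2 wt/wt and at 25.2, 27.3 and 27.0 CPM in Dram2 ko/ko, and the groups overlapped (log2 fold change 0.18 ± 0.13 SE, voom-limma adjusted p 0.919). Igfbp5 was at 306, 345 and 335 CPM in Dram2 wt/wt and at 468, 298 and 424 CPM in Dram2 ko/ko, with 1 of the latter below all of the former (0.26 ± 0.14, adjusted p 0.863). The other ligand and the receptor gave 0.02 ± 0.27 for Igf2 (adjusted p 0.996) and -0.07 ± 0.11 for Igf1r (adjusted p 0.931). The remaining binding proteins gave 0.03 ± 0.16 for Igfbp2 (adjusted p 0.991), -0.22 ± 0.15 for Igfbp3 (adjusted p 0.912), -0.06 ± 0.08 for Igfbp4 (adjusted p 0.929), -0.11 ± 0.13 for Igfbp6 (adjusted p 0.924) and 0.15 ± 0.15 for Igfbp7 (adjusted p 0.922). Both genotypes overlapped for all 9 genes. The 95% intervals of the log2 fold change reached from -0.12 to 0.48 for Igf1, from -0.32 to 0.17 for Igf1r, from -0.35 to 0.40 for Igfbp2 and from -0.25 to 0.13 for Igfbp4, and were widest for Igf2 (-0.61 to 0.65). In whole samples, fewer cells of a type and less RNA per cell cannot be told apart.

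Within the cell types and sub-clusters no family gene was called either. The members tested, after the filter on low counts, were 9 in Fibroblast, Fibroblast 2 and Fibroblast proliferating, 8 in RPE, 7 in Fibroblast-like, Myeloid and Pericyte and 6 in Endothelial. Of all genes tested, voom-limma called 0% in Endothelial, Fibroblast-like and RPE, 0.00503% in Fibroblast, 0.0118% in Pericyte, 0.0296% in Myeloid, 0.222% in Fibroblast 2 and 0.624% in Fibroblast proliferating. In the sub-clusters it called 0.320% in 1, 0.550% in 2, 0.00634% in 3, 0.722% in 4, 0.402% in 7 and 0% in 5, 6 and 8, with 9, 9, 9, 8, 6, 7, 7 and 2 members tested in this order. Sub-cluster 9 was not tested, since only 1 Dram2 ko/ko sample held 10 of its cells and the minimum set was 2. Over the 17 comparisons, 11 of 128 member tests (8.59%) had an unadjusted p under 0.05, against 6.39% of all tests. The 17 comparisons reuse the same cells, since whole samples hold every type and sub-clusters repeat types. Sub-cluster 2 was 98.7% Fibroblast proliferating and sub-cluster 1 was 97.6% Fibroblast. Counts over the 17, here and below, are therefore not counts of independent tests. The edgeR quasi-likelihood test called 1 of the member tests, in Myeloid, against 0.129% of all its tests (0.148% in Myeloid). DESeq2 called 4 against 1.19% of all its tests with an adjusted p, 1 in Endothelial (background 0.195%), 2 in Myeloid (0.140%) and 1 in sub-cluster 5 (0.884%).

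Genotypes that did not overlap, together with an unadjusted p under 0.05, occurred in 5 of the 128 member tests (3.91%), against 5.10% of all 203703 tests. The 5 were Igfbp5 in Endothelial (background there 3.98% of genes), Igfbp2 and Igfbp5 in Myeloid (5.69%), Igfbp2 in sub-cluster 5 (5.71%) and Igf1 in sub-cluster 7 (5.23%). The share of the members was thus below that of all genes, and the 5 are given as values.

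Igfbp5 in Endothelial cells was at 24.6, 119 and 43.3 CPM in Dram2 wt/wt and at 2.40, 4.29 and 6.76 CPM in Dram2 ko/ko. All 3 Dram2 ko/ko values lay below all Dram2 wt/wt values (log2 fold change -3.00 ± 0.81 SE, 95% interval -4.74 to -1.27, voom-limma adjusted p 0.541), and DESeq2 called it (-3.72, adjusted p 0.00228). The UMIs behind it were few and sat in single cells. In Dram2 wt/wt, 25 of 28, 52 of 54 and 13 of 29 Igfbp5 UMIs came from 1 cell each, whereas 1, 2 and 3 UMIs were all that Dram2 ko/ko had. Without the top cell of each sample, Dram2 wt/wt stood at 2.72, 4.49 and 24.6 CPM and Dram2 ko/ko at 0, 2.19 and 4.84 CPM, and the groups overlapped. Dram2 wt/wt replicate 2, the highest for Igfbp5, was also the highest Endothelial sample for Igfbp2 (302 CPM) and Igfbp4 (249 CPM). The summed level of the 5 fibroblast markers in its Endothelial cells was 1775 CPM, against 595 to 1124 CPM in the other 5 samples, and its part in these values was not tested.

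In the Myeloid type only 2 samples a genotype reached 10 cells, with 32 and 15 cells in Dram2 wt/wt and 11 and 14 cells in Dram2 ko/ko. Igfbp5 was at 108 and 195 CPM in Dram2 wt/wt replicates 2 and 3 and at 11.3 and 8.01 CPM in Dram2 ko/ko replicates 2 and 3 (log2 fold change -3.75 ± 0.81 SE, voom-limma adjusted p 0.174). Here too 38 of 64 and 75 of 79 Igfbp5 UMIs of the Dram2 wt/wt samples came from 1 cell each. Without the top cell of each sample, Dram2 wt/wt stood at 49.0 and 11.5 CPM, still above Dram2 ko/ko at 7.34 and 4.73 CPM. Igfbp2 was at 156 and 126 CPM in Dram2 wt/wt and at 675 and 301 CPM in Dram2 ko/ko (1.64 ± 0.34, adjusted p 0.135). In Dram2 ko/ko, 58 of 119 and 129 of 150 Igfbp2 UMIs came from 1 cell each. Without the top cells Igfbp2 stood at 126 and 61.6 CPM in Dram2 wt/wt and at 366 and 49.7 CPM in Dram2 ko/ko, and the groups overlapped. For Igfbp2 the 2 samples under the minimum stood apart from their groups. Dram2 wt/wt replicate 1, with 9 Myeloid cells, held 608 Igfbp2 UMIs (1566 CPM), above both Dram2 ko/ko sums, and Dram2 ko/ko replicate 1, with 3 cells, held 0. For Igfbp5 these samples held 7 and 2 UMIs, which is 18.0 CPM for the former and 14.6 CPM for the latter. The former lay far below the other Dram2 wt/wt sums and the latter near the other Dram2 ko/ko sums. With both included the genotypes did not overlap in Igfbp5, the nearest values being 18.0 and 14.6 CPM. Both Myeloid differences were called by DESeq2 (Igfbp2 1.80, adjusted p 0.0254, and Igfbp5 -4.02, adjusted p 0.000916), and Igfbp5 also by the edgeR quasi-likelihood test (-3.99, adjusted p 0.0145). By voom-limma they were called when single samples were left out, which leaves 1 sample on a side and assumes that it varies like the others. Igfbp2 was then 1.81 and 1.52 with replicate 2 or replicate 3 of Dram2 wt/wt left out, and 2.27 with replicate 3 of Dram2 ko/ko left out. Igfbp5 was -4.34 and -3.48 with replicate 2 or replicate 3 of Dram2 wt/wt left out. The summed fibroblast markers in these Myeloid sums were 4067 and 1417 CPM in Dram2 wt/wt and 3482 and 1905 CPM in Dram2 ko/ko, and their part in the result was not tested.

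In sub-cluster 5, nearly all Fibroblast-like cells of low RNA content, Igfbp2 was at 815, 528 and 605 CPM in Dram2 wt/wt and at 204, 273 and 491 CPM in Dram2 ko/ko. The groups did not overlap, the nearest values being 491 and 528 CPM (log2 fold change -1.17 ± 0.26 SE, 95% interval -1.75 to -0.59, voom-limma adjusted p 0.155). Dram2 ko/ko replicate 3, the batch 2 sample, had the highest of the Dram2 ko/ko values, and without it the difference was called (-1.55, voom-limma adjusted p 0.00507). DESeq2 called it with all samples (-1.04, adjusted p 0.0176). In Dram2 wt/wt, 339 of 854, 143 of 329 and 127 of 483 Igfbp2 UMIs came from 1 cell each, and in Dram2 ko/ko 54 of 383, 28 of 149 and 76 of 419. Without the top cell of each sample, Dram2 wt/wt stood at 503, 303 and 450 CPM and Dram2 ko/ko at 177, 224 and 406 CPM, and the groups overlapped.

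In sub-cluster 7, the sub-cluster with the highest Igfbp7, Igf1 was at 33.8, 45.3 and 48.1 CPM in Dram2 wt/wt and at 143, 72.3 and 67.7 CPM in Dram2 ko/ko. All Dram2 ko/ko values were higher (log2 fold change 1.2 ± 0.31 SE, 95% interval 0.54 to 1.85, voom-limma adjusted p 0.136). Without Dram2 ko/ko replicate 2 it was called (1.41, voom-limma adjusted p 0.0425). These sums held 13 to 79 cells and 12 to 127 Igf1 UMIs. In Dram2 ko/ko replicate 3, 25 of the 39 Igf1 UMIs came from 1 cell, and in Dram2 wt/wt replicate 2, 8 of 12. Without the top cell of each sample, Dram2 wt/wt stood at 27.3, 17.2 and 37.0 CPM and Dram2 ko/ko at 98.0, 60.1 and 25.6 CPM, and the groups overlapped.

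**Figure D5:**
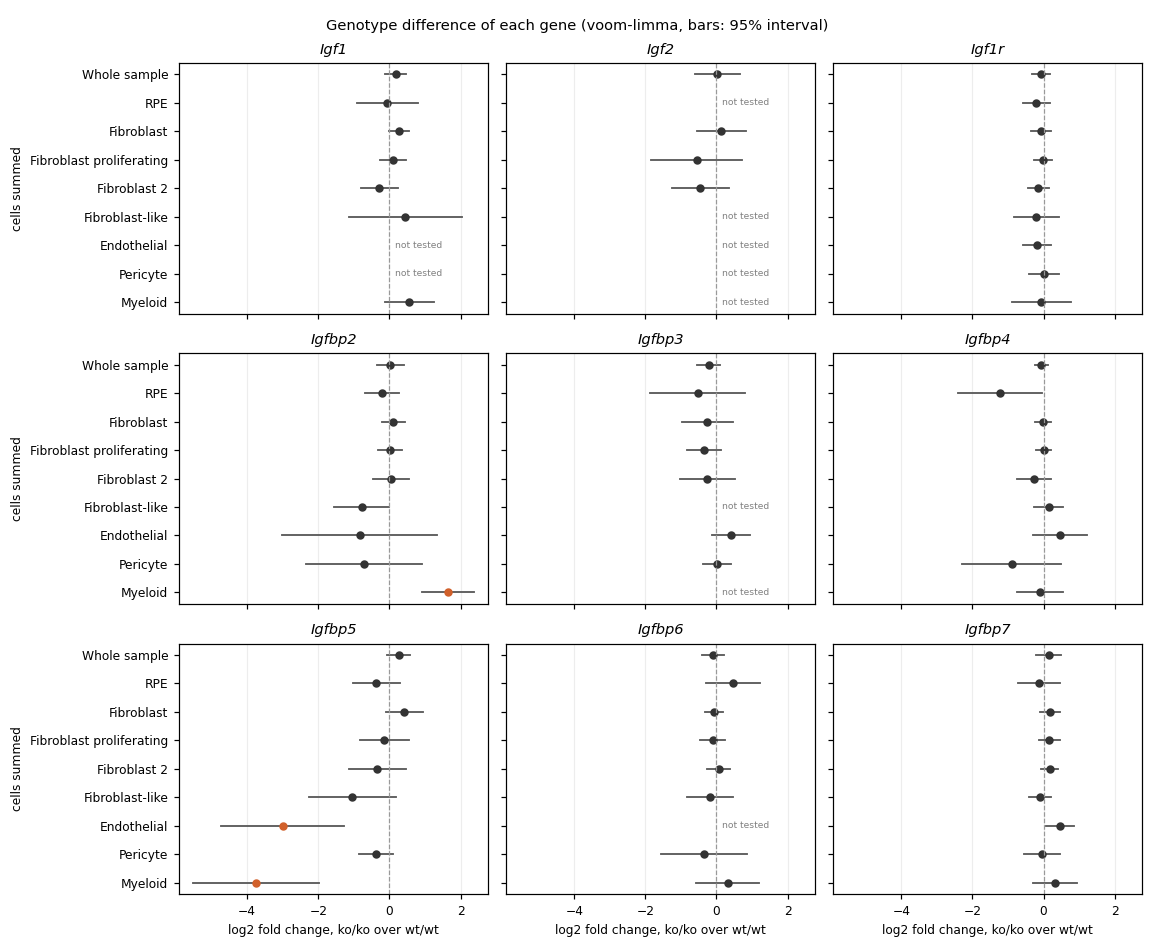
Log2 fold change of Dram2 ko/ko over Dram2 wt/wt (horizontal axis) for each IGF family gene in whole samples and in each cell type (vertical axis), from voom-limma with 95% intervals as bars. Orange points are the 3 cell type values whose genotypes did not overlap and whose unadjusted p was under 0.05, and genes left out by the filter on low counts are marked as not tested. None passed the adjusted threshold, and the widest interval is that of Igfbp2 in Endothelial (-3.01 to 1.34).

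Whether the genotype difference of a type departed from that of Fibroblast was tested with an interaction term, with the sample as a factor. None of the 63 member tests was called by voom-limma. Of all genes, 0.0101% were called in Fibroblast proliferating and 0% in Endothelial, Fibroblast 2, Fibroblast-like, Myeloid, Pericyte and RPE. Of the 63, 10 were on members with too few counts in the type itself, which entered through their level in Fibroblast, and no count is read from those. Among the other 53, 10 (18.9%) had an unadjusted p under 0.05, against 2.52% of the genes tested in both types. The edgeR quasi-likelihood test called 9 of the 53 against 0.114% of those genes. The 9 were 2 in Endothelial (background there 0.407%), 2 in Fibroblast-like (0.0693%), 2 in Myeloid (0.271%) and 3 in Pericyte (0.392%). Igfbp5 made up 7 of the 10, 1 for each type, and all 7 compare with the same Fibroblast sums, where Igfbp5 was at 47.8, 69.5 and 57.3 CPM in Dram2 wt/wt and at 88.4, 52.1 and 99.6 CPM in Dram2 ko/ko, a log2 fold change of 0.42. Sub-cluster 3, high in Igfbp5, held 6.62%, 4.42% and 4.02% of the Fibroblast cells in Dram2 wt/wt and 8.09%, 8.34% and 7.72% in Dram2 ko/ko, with no overlap. Inside it their Igfbp5 was at 281, 543 and 690 CPM in Dram2 wt/wt beside 442, 227 and 350 CPM in Dram2 ko/ko, and outside it at 30.9, 47.2 and 32.2 CPM beside 57.1, 35.7 and 79.2 CPM, overlapping in both. The share of cells in sub-cluster 3 was not tested, nor was its part in the 0.42 and in the 7 differences from Fibroblast. Shares in the other sub-clusters are not given here, and the authors reported no difference between the genotypes after sub-clustering the fibroblasts. In Fibroblast 2, the type that holds most Igfbp5, the log2 fold change was -0.35 and the difference from Fibroblast -0.75 ± 0.19 SE (voom-limma adjusted p 0.866). In RPE it was -0.37 and the difference -0.90 ± 0.29 (adjusted p 1.000). The differences from Fibroblast were larger in Endothelial (-3.70 ± 0.54, adjusted p 0.463), Myeloid (-3.79 ± 0.67, adjusted p 0.832) and Fibroblast-like (-1.80 ± 0.59, adjusted p 1.000), and were -0.84 ± 0.27 in Pericyte (adjusted p 0.999) and -0.58 ± 0.26 in Fibroblast proliferating (adjusted p 1.000). In Endothelial and Myeloid they rest on the few cells described above. The edgeR quasi-likelihood test called Igfbp5 in Endothelial (-3.99, adjusted p 8.72e-17), Myeloid (-4.43, adjusted p 4.83e-17), Fibroblast-like (-1.88, adjusted p 4.37e-08) and Pericyte (-0.83, adjusted p 7.43e-05). It called Igfbp2 in Endothelial (-1.27, adjusted p 0.00148), Fibroblast-like (-0.88, adjusted p 0.0282), Myeloid (1.35, adjusted p 0.000126) and Pericyte (-1.09, adjusted p 3.85e-05), and Igfbp4 in Pericyte (-0.81, adjusted p 0.0104). The levels of both genotypes overlapped for Igfbp2 in Endothelial, Fibroblast-like and Pericyte, for Igfbp5 in Fibroblast-like and Pericyte, and for Igfbp4 in Pericyte. In Pericyte the 5 fibroblast markers summed to 2173, 2642 and 2079 CPM in Dram2 wt/wt. In Dram2 ko/ko they summed to 1768, 1916 and 1787 CPM, and their part in the Pericyte calls was not tested. This sum mainly follows Col1a1, which was at 1729 CPM in Pericyte, above Fibroblast (673 CPM). Mgp (271 against 2931 CPM), Dcn (51.8 against 580 CPM), Pdgfra (6.36 against 53.6 CPM) and Lum (2.61 against 83.9 CPM) were below Fibroblast. Besides Igfbp5, the tests under 0.05 by voom-limma before adjustment were Igfbp2 in Fibroblast-like (-0.88 ± 0.37) and Myeloid (1.27 ± 0.39) and Igfbp4 in RPE (-1.09 ± 0.39).

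The other genes of the pathway were described by a list of 51 that covers further receptors and binding proteins, signalling components, proteases and RNA-binding proteins. In whole samples 47 were tested and 0 called, with 0 higher and 1 lower (Plagl1, -0.41 ± 0.17 SE, voom-limma adjusted p 0.631) at an unadjusted p under 0.05, and their median log2 fold change was 0.02 beside 0.00 over all genes. Over the 17 comparisons 0 of 602 tests of these genes were called by voom-limma, with 6 higher and 11 lower at an unadjusted p under 0.05 (2.82%, against 1.45% higher and 4.94% lower of all tests). The edgeR quasi-likelihood test called 0 and DESeq2 called 1, Plagl1, an imprinted zinc finger transcription factor, in Fibroblast 2 (log2 fold change -0.65, DESeq2 adjusted p 0.0485), where DESeq2 called 1.13% of all genes. The 3 with the highest level in whole samples were Rheb, the small GTPase that activates mTORC1, at 342 CPM (308 to 427), Eif4ebp1, a repressor of translation that mTORC1 switches off, at 289 CPM (261 to 322), and Akt1, the kinase downstream of PI3-kinase, at 221 CPM (208 to 234). Their log2 fold changes were 0.16 ± 0.13, 0.08 ± 0.11 and 0.06 ± 0.07 SE (voom-limma adjusted p 0.92, 0.928 and 0.924). Across the types Rheb lay between 232 CPM in Fibroblast-like and 427 CPM in Pericyte, Eif4ebp1 between 200 CPM in Fibroblast 2 and 404 CPM in Pericyte, and Akt1 between 174 CPM in RPE and 340 CPM in Fibroblast-like.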

How the data were processed

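Single-cell RNA-seq (10x Genomics 3′ chemistry) was made from cultured mouse RPE and choroid cells of 3 Dram2 wt/wt and 3 Dram2 ko/ko samples. The deposited UMI counts per gene and cell were made by the authors with Cell Ranger 3.1.0 on GRCm38, counting exonic reads, and the authors integrated the batches and annotated cells by clustering in Seurat. The authors' cell types and fibroblast sub-clusters were used as deposited.

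Counts were summed over the cells of each sample, cell type or sub-cluster, keeping sums of at least 10 cells. Genotypes were compared with voom-limma (limma 3.58.1, TMM factors and filterByExpr of edgeR 4.0.16, R 4.3.3) where each genotype had at least 2 samples. P-values were two-sided, adjusted by Benjamini-Hochberg over all genes tested in a comparison, and called under 0.05. Interactions used the same tool. The code was checked on simulated data. edgeR's quasi-likelihood test, DESeq2 1.42.0, other scaling, filters, covariates, cells and left-out samples were alternatives. For low quality, 469 cells (under 500 genes or over 20% mitochondrial counts) were left out in one alternative, and the 1295 cells with the most UMIs in another, standing in for a doublet caller, which was not run. Shares of cells used cells thinned to 3000 UMIs. Intervals and limits cover counting error only where they come from counts. Fold changes in a cell type or sub-cluster are given in full where the genotypes did not overlap and the unadjusted p was under 0.05. The members and lists were chosen with earlier results of these data known. Promoters came from RefSeq (GRCm38.p6), with 13 entries for the 9 genes.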

Additional observations from a re-analysis of the deposited data

How the results depend on the processing

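No family gene was called with the settings reported, and 234 of 249 alternative counts for the 17 comparisons between genotypes stayed at that, as did 132 of 133 for the other pathway genes and 74 of 82 for the interaction with cell type, whose alternatives were chosen after seeing the data. In Endothelial DESeq2 called 1 member. In Myeloid the edgeR quasi-likelihood test called 1, DESeq2 2, no low count filter 2, the batch covariate 1 and a replicate block 2, and leaving out 1 sample gave 0 to 2 (2 when replicate 2 or 3 of Dram2 wt/wt was dropped, 1 when replicate 3 of Dram2 ko/ko was). In sub-cluster 5 DESeq2, no low count filter and the batch covariate each called 1, and leaving out 1 sample gave 0 to 1 (1 without Dram2 ko/ko replicate 3). Batch 2 held only Dram2 ko/ko replicate 3, so the batch covariate is nearly the same fit as leaving that sample out and no separate evidence. In sub-cluster 7 no low count filter called 2, and leaving out 1 sample gave 0 to 1 (1 without Dram2 ko/ko replicate 2). DESeq2 called 1 other pathway gene in Fibroblast 2. For the interaction the edgeR quasi-likelihood test called 2 members in Endothelial, 2 in Fibroblast-like, 2 in Myeloid and 3 in Pericyte, no low count filter 1 in Myeloid, and leaving out 1 sample gave 0 to 1 in Fibroblast 2 (without Dram2 wt/wt replicate 1) and in Myeloid (without Dram2 wt/wt replicate 2 or 3). The cause was not tested.

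In whole samples 126 of 135 alternative log2 fold changes kept their direction. With the batch covariate Igf2 was -0.15 and Igfbp2 -0.14. Leaving out 1 sample moved Igf2 between -0.14 and 0.32, Igfbp2 between -0.13 and 0.18, Igf1r between -0.14 and 0.00 and Igfbp7 between -0.02 and 0.28. The signs turned for Igf2 when replicate 3 of Dram2 wt/wt (-0.11) or replicate 1 (-0.13) or 3 (-0.14) of Dram2 ko/ko was dropped, for Igfbp2 when replicate 3 of Dram2 wt/wt (-0.07) or of Dram2 ko/ko (-0.13) was, and for Igf1r and Igfbp7 when replicate 2 of Dram2 ko/ko was. The same-numbered samples of the genotypes correlated at 0.099, -0.429 and 0.028 in their deviations, so their numbers pair nothing, and the replicate block changed the calls in Myeloid only.

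Of 136 alternative levels 134 stayed within 1 SD. Leaving out 1 sample cannot shift a mean over samples by more than 1 SD, so nothing is read from alternatives of that kind. With cells of low quality left out, sub-cluster 6 was at 9.56 CPM of Igf2 and 1565 CPM of Igfbp4. Without thinning, the share of cells with a UMI was 58.3% for Igf1 in Myeloid, 5.0% for Igf2 in Fibroblast 2, 92.3% for Igf1r, 98.6% for Igfbp4 and 61.7% for Igfbp6 in Fibroblast proliferating, 94.7% for Igfbp2 in RPE, 64.6% for Igfbp3 in Pericyte and 100% for Igfbp7 in Endothelial.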
